A study of Homo sapiens with 8 samples.

Results

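Histones are the proteins around which nuclear DNA is wound. The 36 histone genes described here were measured in IGROV-1, a human line from an ovarian carcinoma, after growth inside the abdomen of mice that received CpG-ODN or saline. Members were the genes whose platform symbol follows histone nomenclature (H1, H2A, H2B, H3 or H4, with the macroH2A genes counted as H2A variants). A member also needed 1 probe above background, by a detection p-value under 0.05, on 4 or more of the 8 arrays. The array held 97 probes that name 1 such gene, for 82 genes. Of these, 44 probes of 36 genes were kept, out of 11023 named genes with a kept probe in all. The kept genes comprised 26 replication-dependent genes with 29 probes and 10 variant genes with 15 probes. A pseudogene, H3P6, was set apart with 2 kept probes.

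The CpG-ODN group comprised 4 arrays of tumor cells from mice given ODN1826, a synthetic phosphorothioated oligonucleotide with unmethylated CpG motifs, at 20 µg per mouse into the peritoneal cavity. Dosing was on 3 consecutive days or 1 time, and which schedule an array belongs to is not given. The saline group comprised 4 arrays from mice given saline. In both groups the cells came from a line adapted to intraperitoneal growth and kept by serial passage of ascitic cells. Treatment began 10 to 11 days after injection and cells adhering to the peritoneal wall were taken 24 hours after the last dose. The labels give 4 mice per group but no strain, age or sex of the host, and they do not link arrays to single mice. The p-values therefore measure the spread between these arrays.

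Replication-dependent histone genes lie in clusters, are transcribed mainly in S phase, and supply the bulk of the histones packaged behind the replication fork. Their mRNAs typically end in a stem-loop in place of a poly(A) tail, although several of these genes also yield polyadenylated transcripts. Most variant genes lie outside the clusters, are transcribed throughout the cell cycle, carry introns in most cases and give polyadenylated mRNAs. The cRNA kit named in the labels, MessageAmp, primes reverse transcription from poly(A) tails, so signals of replication-dependent genes report the transcripts that this priming copies and are no measure of the whole histone mRNA pool.

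Values below are log2 signals after background correction and quantile normalization. Mean raw signal was 899 ± 122 on CpG-ODN arrays and 939 ± 93.9 on saline arrays (SD, n = 4 each, exact permutation test, two-sided p = 0.514). Probes detected numbered 18425 to 18570 on CpG-ODN arrays and 18784 to 20114 on saline arrays, a difference with p = 0.0286 by a two-sided exact permutation test, the lowest value open to 4 against 4. Of 14 ovarian carcinoma and epithelial markers, 13 had a probe and 11 were kept, among them PAX8, KRT7, KRT8, EPCAM and MUC16, whereas WT1 was detected on no array. By the brightest probe of each gene, 1 gene of that list, KRT18, passed the threshold, with a log2 fold change of 0.75 ± 0.16 (SE, limma adjusted p = 0.00782), and its other probe stood at 0.49 (adjusted p = 0.08). A dimmer probe of PAX8, ILMN_2319292, was also higher, at 0.90 ± 0.14 (SE, limma adjusted p = 0.00115), while the other PAX8 probes stood at -0.10 and -0.44 and did not pass. The summed normalized signal of the 11 kept genes ran from 72550 to 82422 on CpG-ODN arrays and from 83805 to 88873 on saline arrays, lower with CpG-ODN and without overlap. Such a sum is weighted to the brightest genes, and the median log2 fold change of the 11 was -0.08. KRT19, the brightest, stood at -0.28 and did not pass (limma adjusted p = 0.141). How far the summed difference rests on KRT19 was not tested. Of 51 measured markers of macrophages, endothelium, fibroblasts, lymphocytes, neutrophils, erythroid cells and mesothelium, 20 were kept, of which 6 were higher and 3 lower with CpG-ODN, where 29.2% of all named genes passed in either direction. MSLN is counted in both sets of markers. The summed normalized signal of these 20 ran from 39347 to 47743 on CpG-ODN arrays and from 29947 to 37004 on saline arrays. Without MFAP5, a gene of the fibroblast list, the sum ran from 24461 to 36133 on CpG-ODN arrays and from 21663 to 29413 on saline arrays, which overlap. Of the 51, 17 markers, including PTPRC, CSF1R and TYROBP, were detected on no array. The probes are annotated to human genes, while cells of the host are mouse cells. Whether mouse RNA gave signal at these probes was not tested, so the markers do not measure host cell content. The part of either set of markers in the histone values was not tested. In such bulk samples, fewer cells of a type and less RNA per cell cannot be told apart.

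Histone genes moved in both directions with CpG-ODN, and most did not pass the test. By limma across all 18184 kept probes, 7 of the 44 histone probes were higher and 3 were lower at an adjusted p under 0.05, together 22.7%, where 26.6% of all kept probes passed. Counted by the brightest probe of each gene, 8 of 36 histone genes passed (22.2%, against 29.2% of all named genes), 6 higher and 2 lower, where 12.9% of all named genes were higher and 16.3% lower. The groups did not overlap at 12 of the 44 histone probes, against 28.9% of all kept probes. The share of histone probes that changed was thus near that of all probes. The largest rise was that of H3-3B, at 3.11-fold, and the largest fall that of a probe of H2BC5, to 0.404 of its saline level. Median log2 fold changes were 0.13 over the 29 replication-dependent probes, -0.03 over the 15 variant probes and 0.01 over all kept probes. With median scaling over all probes they were 0.015 for replication-dependent and 0.07 for variant probes, and with median scaling over kept probes 0.21 and 0.19. The replication-dependent median was 0.042 without background correction and 0.0048 without the detection filter.

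**Figure D1:**
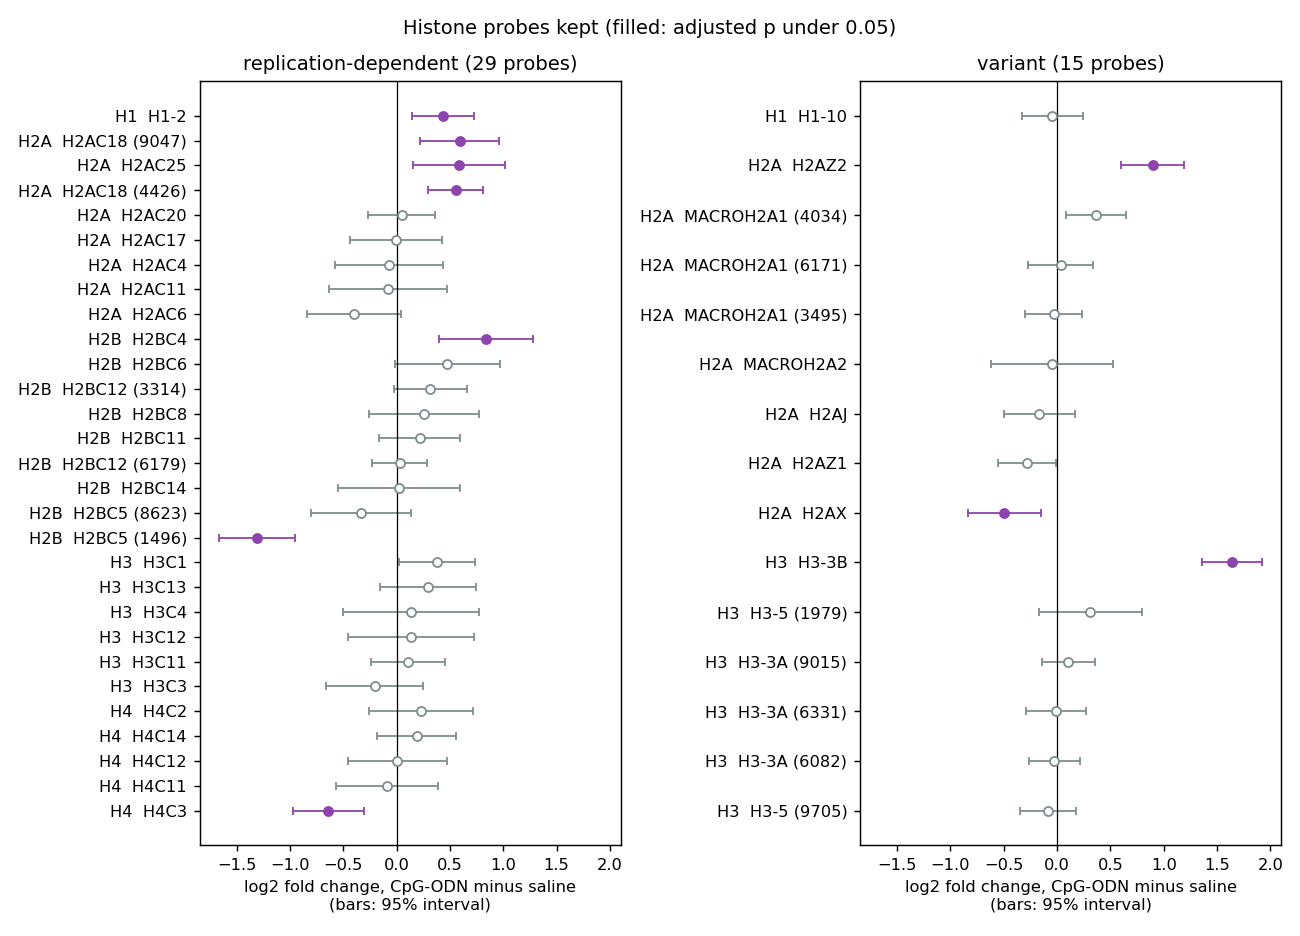
Log2 fold change (CpG-ODN minus saline, x axis) of the 29 replication-dependent probes (left) and 15 variant probes (right), with 95% intervals from limma. Filled points passed an adjusted p of 0.05, and where a gene has several probes the last 4 digits of the probe name are given. H3-3B at 1.64 and the H2BC5 probe at -1.31 lie farthest from 0.

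Among the 10 variant genes, 2 were higher and 1 lower by the brightest probe. These are 30% of them, near the 29.2% of all named genes. The 2 that rose each have a partner gene for the same kind of variant histone that did not. H3-3A and H3-3B both encode H3 variant H3.3, which is placed into chromatin outside replication, at active genes by the HIRA complex and at repeats by DAXX and ATRX. H3-3B (probe ILMN_1695706) gave log2 signals of 12.96, 12.72, 12.80 and 12.69 on the 4 CpG-ODN arrays and of 11.31, 10.95, 11.27 and 11.08 on the 4 saline arrays. Every CpG-ODN array was above every saline array by more than the range within either group. The log2 fold change was 1.64 ± 0.13 (SE, limma adjusted p = 5.88e-05), and it passed in 20 of 20 alternative settings.

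H3-3A was measured by 3 probes, none of which passed. The brightest, ILMN_1656082, read 15.24, 15.17, 15.27 and 15.23 with CpG-ODN and 15.14, 15.36, 15.25 and 15.26 in saline. The groups overlapped, and the 95% interval of the log2 fold change ran from -0.26 to 0.21. ILMN_1699015 read 14.33, 14.43, 14.42 and 14.19 with CpG-ODN and 14.16, 14.29, 14.24 and 14.25 in saline, with a log2 fold change of 0.11 (limma adjusted p = 0.528, 95% interval -0.14 to 0.35). ILMN_2106331 read 14.65, 14.70, 14.83 and 14.54 with CpG-ODN and 14.65, 14.90, 14.50 and 14.69 in saline, with a log2 fold change of -0.01 (limma adjusted p = 0.973, 95% interval -0.29 to 0.27). Both overlapped between the groups. With median scaling over the kept probes, under which the median of all probes moved to 0.10, ILMN_1699015 passed at 0.34 (limma adjusted p = 0.0386). H3-5 is an intronless gene for a variant closely related to H3.3. Its brighter probe read 11.66, 11.74, 11.81 and 11.88 with CpG-ODN and 11.78, 12.01, 11.70 and 11.93 in saline (log2 fold change -0.08 ± 0.12, SE, limma adjusted p = 0.652). Its dimmer probe, detected on 3 of 4 CpG-ODN and 2 of 4 saline arrays, stood at 6.13, 5.34, 5.80 and 6.01 with CpG-ODN and 5.20, 5.93, 5.70 and 5.20 in saline (log2 fold change 0.31 ± 0.22, SE, limma adjusted p = 0.329). The groups overlapped at both. H3P6, a pseudogene related to H3-3A, stood at -0.10 (adjusted p = 0.694) and -0.03 (adjusted p = 0.925). No probe sequences were used here, so signal shared between these near-identical genes was not tested.

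H2AZ1 and H2AZ2 encode the H2A.Z variants, which mark promoters and are exchanged into nucleosomes by the SRCAP and EP400 complexes. H2AZ2 (probe ILMN_1706784) gave 7.69, 7.98, 7.92 and 7.64 with CpG-ODN and 7.07, 6.85, 7.004 and 6.72 in saline. The groups did not overlap, and the log2 fold change was 0.90 ± 0.13 (SE, limma adjusted p = 0.00104). It passed in 20 of 20 alternatives, with a size of 0.43 without background correction. H2AZ1 (probe ILMN_1707858) gave 14.31, 14.47, 14.61 and 14.27 with CpG-ODN and 14.74, 14.63, 14.80 and 14.62 in saline. These groups did not overlap either, in the opposite direction, but the log2 fold change of -0.28 ± 0.12 did not pass (limma adjusted p = 0.113). It did pass without background correction (adjusted p = 0.036), in the second deposited table (adjusted p = 0.0364) and with a mean-variance trend (adjusted p = 0.0343). With median scaling it was smaller, at -0.16 over all probes (adjusted p = 0.543) and at -0.039 over kept probes (adjusted p = 0.824).

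The difference between partners was set out as the log2 ratio of their probes within each array, which a shift of a whole array leaves unchanged. For H3-3B over the brightest H3-3A probe the ratio was -2.43 ± 0.11 on CpG-ODN arrays and -4.10 ± 0.25 on saline arrays (SD, n = 4 each), a difference of 1.66. Against the other H3-3A probes the differences were 1.53 and 1.65. For H2AZ2 over H2AZ1 the ratio was -6.61 ± 0.09 on CpG-ODN arrays and -7.79 ± 0.09 on saline arrays (SD, n = 4 each), a difference of 1.18. This size depends on the processing. The log2 fold changes of H2AZ2 and H2AZ1 were 0.43 and -0.28 without background correction. With median scaling over all probes they were 0.70 and -0.16. In each of these 4 ratios every CpG-ODN array lay above every saline array. The pairs were chosen because 1 partner had passed and the other had not, and 3 of the ratios share the H3-3B probe, so the ratios are a description with no test.

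**Figure D2:**
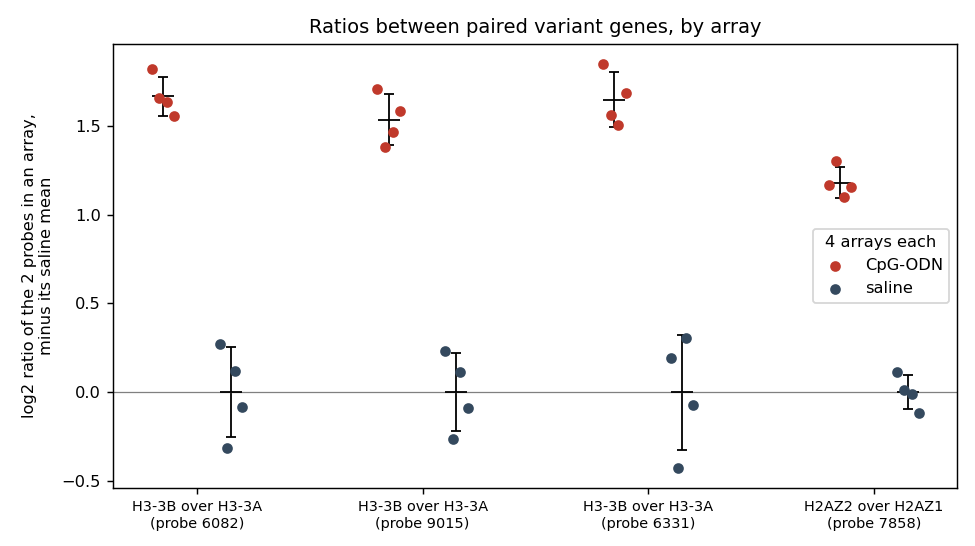
Log2 ratio of H3-3B to each of 3 H3-3A probes and of H2AZ2 to H2AZ1 in every array (y axis, minus the saline mean of that ratio), CpG-ODN left of saline. Points are arrays, 4 a group, and bars are mean ± SD. CpG-ODN arrays lie 1.18 to 1.66 above saline on average, with no overlap.

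The promoters of both pairs are shown because the partners differed in their response. Each line holds 250 bases before and 50 bases after the annotated start in RefSeq on GRCh38.p14, 5′ to 3′ on the strand of the gene. Capitals mark matches on either strand to any of 4 motifs. These were the CCAAT box and TATAAA, the core of the TATA box. The others were the octamer ATTTGCAT and the cyclic AMP response element TGACGTCA. For H3-3A, which has 4 annotated starts in the table, the farthest downstream is shown.
H3-3B (chr17:75779730-75780029, minus strand): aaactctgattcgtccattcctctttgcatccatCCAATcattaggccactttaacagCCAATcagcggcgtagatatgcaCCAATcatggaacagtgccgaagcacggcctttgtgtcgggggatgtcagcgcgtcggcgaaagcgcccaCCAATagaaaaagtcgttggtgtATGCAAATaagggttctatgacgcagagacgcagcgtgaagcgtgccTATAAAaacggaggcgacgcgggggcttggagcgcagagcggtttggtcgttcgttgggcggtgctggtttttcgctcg
H3-3A (chr1:226062466-226062765, plus strand): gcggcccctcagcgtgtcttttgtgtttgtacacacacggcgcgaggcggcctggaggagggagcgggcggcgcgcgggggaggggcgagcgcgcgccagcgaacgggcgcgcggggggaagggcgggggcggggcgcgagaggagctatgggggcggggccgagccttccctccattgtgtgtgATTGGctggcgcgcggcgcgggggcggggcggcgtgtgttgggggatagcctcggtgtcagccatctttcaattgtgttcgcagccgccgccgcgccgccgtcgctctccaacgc
H2AZ2 (chr7:44848038-44848337, minus strand): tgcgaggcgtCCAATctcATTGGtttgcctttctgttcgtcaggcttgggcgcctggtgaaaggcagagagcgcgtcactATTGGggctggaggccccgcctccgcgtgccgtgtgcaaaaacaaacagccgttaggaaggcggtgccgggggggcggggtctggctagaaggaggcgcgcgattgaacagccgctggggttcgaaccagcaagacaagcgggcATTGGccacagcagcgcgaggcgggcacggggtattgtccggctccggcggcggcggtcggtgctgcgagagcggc
H2AZ1 (chr4:99950226-99950525, minus strand): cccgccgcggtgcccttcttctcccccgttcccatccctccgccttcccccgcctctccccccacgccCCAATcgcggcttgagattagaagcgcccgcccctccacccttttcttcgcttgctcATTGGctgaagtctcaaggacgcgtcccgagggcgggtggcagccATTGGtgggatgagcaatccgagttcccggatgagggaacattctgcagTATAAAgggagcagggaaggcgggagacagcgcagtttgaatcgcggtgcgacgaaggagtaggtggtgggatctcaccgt
The H3-3B window held 4 CCAAT, 1 TATAAA starting 29 bases before the start site and 1 octamer on the opposite strand, and the H3-3A window shown held 1 CCAAT. The H2AZ2 window held 4 CCAAT and no TATAAA, while that of H2AZ1 held 3 CCAAT and 1 TATAAA, 31 bases before the start site. Over 35116 promoters of the same length, 34.6% held CCAAT, 11.5% TATAAA, 1.77% the octamer and 1.85% TGACGTCA. These matches are descriptions of the letters and not sites of binding.

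H2AX encodes H2A.X, the variant phosphorylated beside DNA breaks, and its gene lies outside the clusters. Its probe gave 8.76, 8.71, 9.02 and 9.12 with CpG-ODN and 9.30, 9.52, 9.12 and 9.65 in saline. The lowest saline array lay just above the highest CpG-ODN array, and the log2 fold change was -0.50 ± 0.15 (SE, limma adjusted p = 0.0369). This call was among the less stable, passing in 11 of 20 alternatives, with adjusted p-values up to 0.0961, and in 2 of the 8 settings that leave out an array.

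The remaining variant genes did not pass. MACROH2A1 encodes macroH2A1, a large H2A variant associated with silent chromatin. Of its 3 kept probes, ILMN_1674034 was higher on all CpG-ODN arrays, at 9.16, 9.44, 9.31 and 9.24 against 8.92, 8.76, 9.16 and 8.84 on saline arrays, with a log2 fold change of 0.36 ± 0.13 that narrowly missed the threshold (limma adjusted p = 0.0584) and passed in 7 of 20 alternatives. Its brighter probes overlapped between the groups. ILMN_1746171 read 11.22, 11.30, 11.08 and 11.21 with CpG-ODN and 11.50, 10.96, 11.09 and 11.13 in saline, and its log2 fold change was 0.03 (limma adjusted p = 0.892). ILMN_2373495 read 14.17, 14.33, 14.39 and 14.18 with CpG-ODN and 14.41, 14.35, 14.33 and 14.12 in saline, and its log2 fold change was -0.03 (limma adjusted p = 0.873).

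MACROH2A2, which encodes the related macroH2A2, was detected on 2 of 4 CpG-ODN and 3 of 4 saline arrays. It stood at 5.96, 5.61, 5.47 and 6.20 with CpG-ODN and 5.92, 6.51, 5.78 and 5.21 in saline, with a log2 fold change of -0.05 (limma adjusted p = 0.92, 95% interval -0.62 to 0.53). H2AJ, an H2A variant gene, read 8.64, 8.59, 8.35 and 8.77 with CpG-ODN and 8.72, 8.58, 8.63 and 9.09 in saline, with a log2 fold change of -0.17 (limma adjusted p = 0.452, 95% interval -0.50 to 0.16). H1-10, the linker histone gene outside the clusters, read 10.18, 10.14, 10.40 and 10.45 with CpG-ODN and 10.48, 10.45, 10.21 and 10.20 in saline, with a log2 fold change of -0.04 (limma adjusted p = 0.841, 95% interval -0.33 to 0.24). The groups overlapped at each of these 3 probes.

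Replication-dependent probes gave 5 higher and 2 lower of 29 (24.1%, against 26.6% of all kept probes), and their log2 fold changes ran from -1.31 to 0.84. By histone type, the higher probes belonged to linker histone H1 (1 of 1 kept), H2A (3 of 8) and H2B (1 of 9), and the lower ones to H2B (1 of 9) and H4 (1 of 5). None of the 6 replication-dependent H3 probes passed. The count of higher probes was 0 with median scaling over all probes, where the split over the whole array was 1055 higher and 2811 lower in place of 2322 and 2521. It was 2 without CpG-ODN replicate 1, CpG-ODN replicate 3 or saline replicate 2, and 3 without CpG-ODN replicate 4 or saline replicate 3. Median scaling over kept probes gave 2920 higher and 2195 lower over the whole array and left 1 lower replication-dependent probe.

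**Figure D3:**
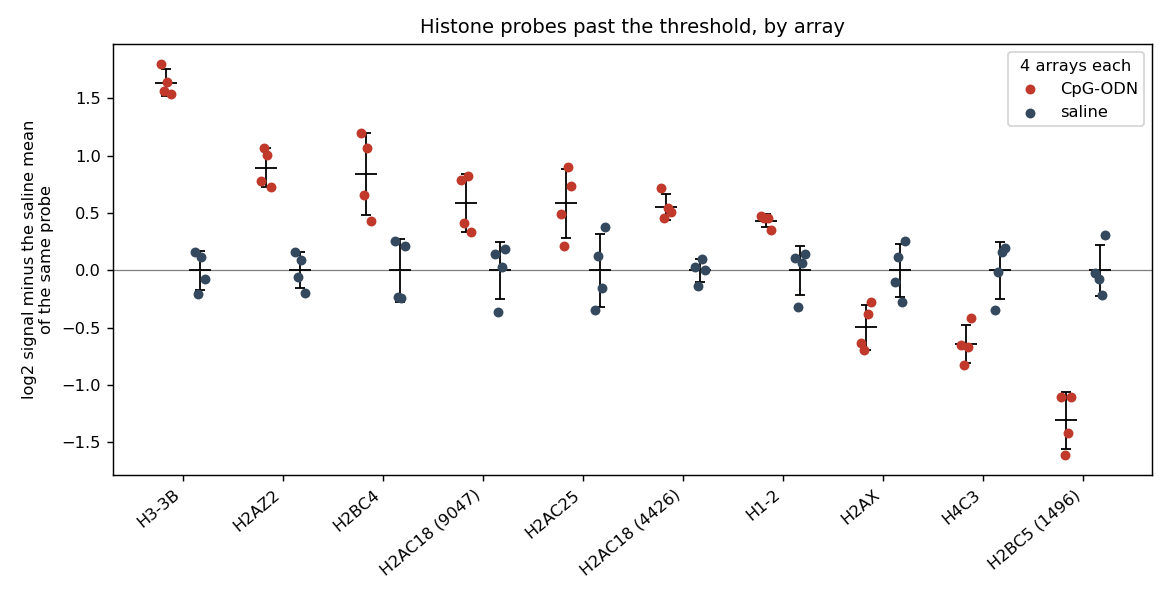
Log2 signal of the 10 histone probes past the threshold in every array (y axis, minus the saline mean of the same probe), CpG-ODN left of saline. Points are arrays, 4 a group, and bars are mean ± SD. The groups of H2AC25 overlap, and those of the other probes do not.

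H1-2 encodes a linker histone that binds DNA as it enters and leaves the nucleosome. It gave 9.95, 9.93, 9.93 and 9.83 with CpG-ODN and 9.59, 9.16, 9.54 and 9.62 in saline. All CpG-ODN arrays were higher, and the log2 fold change was 0.43 ± 0.13 (SE, limma adjusted p = 0.0332). The call held in 10 of 20 alternatives and in 2 of the 8 that leave out an array, and it was lost with median scaling over all probes (adjusted p = 0.271).

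H2AC18, an H2A gene with a near-identical neighbouring copy, H2AC19, rose by both of its probes. ILMN_2144426 gave 9.54, 9.28, 9.37 and 9.33 with CpG-ODN and 8.86, 8.69, 8.93 and 8.82 in saline, and ILMN_1659047 gave 9.85, 9.47, 9.88 and 9.39 with CpG-ODN and 9.20, 8.69, 9.09 and 9.25 in saline. Neither probe overlapped between the groups, and the log2 fold changes were 0.56 ± 0.12 (SE, limma adjusted p = 0.006) and 0.59 ± 0.17 (SE, limma adjusted p = 0.0263). The first lost its call in 1 of 20 alternatives, median scaling over all probes (adjusted p = 0.115). The second lost it there (adjusted p = 0.169) and without CpG-ODN replicate 1, CpG-ODN replicate 3 or saline replicate 2. Which of the copies gave the signal cannot be told from the probe annotation.

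H2AC25, the H2A gene of the small cluster known as HIST3, read 9.32, 9.04, 9.73 and 9.57 with CpG-ODN and 8.48, 8.96, 8.67 and 9.21 in saline. CpG-ODN replicate 2 lay below saline replicate 4, so the groups overlapped, and the log2 fold change of 0.58 ± 0.19 passed narrowly (SE, limma adjusted p = 0.0485) and in 9 of 20 alternatives. H2BC4, an H2B gene, gave 7.79, 7.25, 7.66 and 7.02 with CpG-ODN and 6.84, 6.36, 6.35 and 6.81 in saline. Its lowest CpG-ODN array lay above its highest saline array. The log2 fold change was 0.84 ± 0.20 (SE, limma adjusted p = 0.0112), and it was 0.36 without background correction and missed the threshold with median scaling over all probes (adjusted p = 0.057).

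H4C3, an H4 gene, was lower: 14.75, 14.58, 14.74 and 14.98 with CpG-ODN against 15.06, 15.39, 15.56 and 15.60 in saline. The groups did not overlap, and the log2 fold change was -0.64 ± 0.15 (SE, limma adjusted p = 0.0114). The call was lost with median scaling over all probes (-0.50, adjusted p = 0.0577) and over kept probes (-0.39, adjusted p = 0.119), and it held without any 1 array. The proteins encoded by nearly all H4 genes are the same, and the other 4 kept H4 probes stood between -0.09 and 0.23.

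H2BC5, an H2B gene, was measured by 2 kept probes that the annotation assigns to the same RefSeq transcript and that differed in their result. Another H2BC5 probe, ILMN_1777405, was detected on no array. ILMN_1651496 gave 7.09, 6.59, 6.78 and 7.10 with CpG-ODN and 8.18, 8.12, 7.98 and 8.51 in saline. The groups were far apart, with a log2 fold change of -1.31 ± 0.16 (SE, limma adjusted p = 0.00039) that passed in 20 of 20 alternatives, at -0.67 without background correction. ILMN_1758623 gave 7.995, 6.93, 7.57 and 7.28 with CpG-ODN and 7.54, 7.79, 7.79 and 7.99 in saline. Its groups overlapped, with a log2 fold change of -0.33 ± 0.21 that did not pass (limma adjusted p = 0.278, 95% interval -0.80 to 0.14). ILMN_1758623 is slightly the brighter of the 2 over all arrays. H2BC5 is therefore not among the genes counted as lower by the brightest probe.

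Among other replication-dependent genes, H3C1, an H3.1 gene, was higher on all CpG-ODN arrays, at 6.56, 6.66, 7.25 and 6.67 against 6.35, 6.36, 6.56 and 6.36 on saline arrays, a margin of under 0.01 between the closest arrays. Its log2 fold change of 0.38 ± 0.16 did not pass (limma adjusted p = 0.11). H2AC6, an H2A gene, stood at -0.40 ± 0.20 (limma adjusted p = 0.169) and H2BC6 at 0.48 ± 0.22 (limma adjusted p = 0.143, detected on 3 of 4 CpG-ODN and 2 of 4 saline arrays). The brighter H2BC12 probe gave 10.94, 10.73, 10.92 and 10.74 with CpG-ODN and 10.83, 10.69, 10.94 and 10.75 in saline, with nearly the same values in both groups (95% interval of the log2 fold change, -0.23 to 0.29). The other replication-dependent probes not described singly lay between -0.21 and 0.32.

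The large HIST1 cluster on chromosome 6 supplied 23 of the kept replication-dependent probes, with 2 higher and 2 lower (17.4%, against 26.6% of all kept probes). All 4 of these lay within a stretch of 7 measured genes, in the order H1-2, H4C3, H1-6, H2BC4, H2AC6, H1-4 and H2BC5. Their directions alternated along it, an arrangement noticed after the values were seen. The calls of H1-2, H4C3 and H2BC4 were lost with median scaling over all probes, and the brighter H2BC5 probe did not pass. H2BC4 and H2AC6 are neighbours in the order of the measured genes, and H2BC4 rose while H2AC6 stood at -0.40. The testis-specific gene H1-6 and the linker histone gene H1-4 were not kept. In the HIST2 cluster on chromosome 1, the log2 fold changes of the 5 kept probes ran from 0.05 to 0.59, and the 2 of H2AC18 passed.

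**Figure D4:**
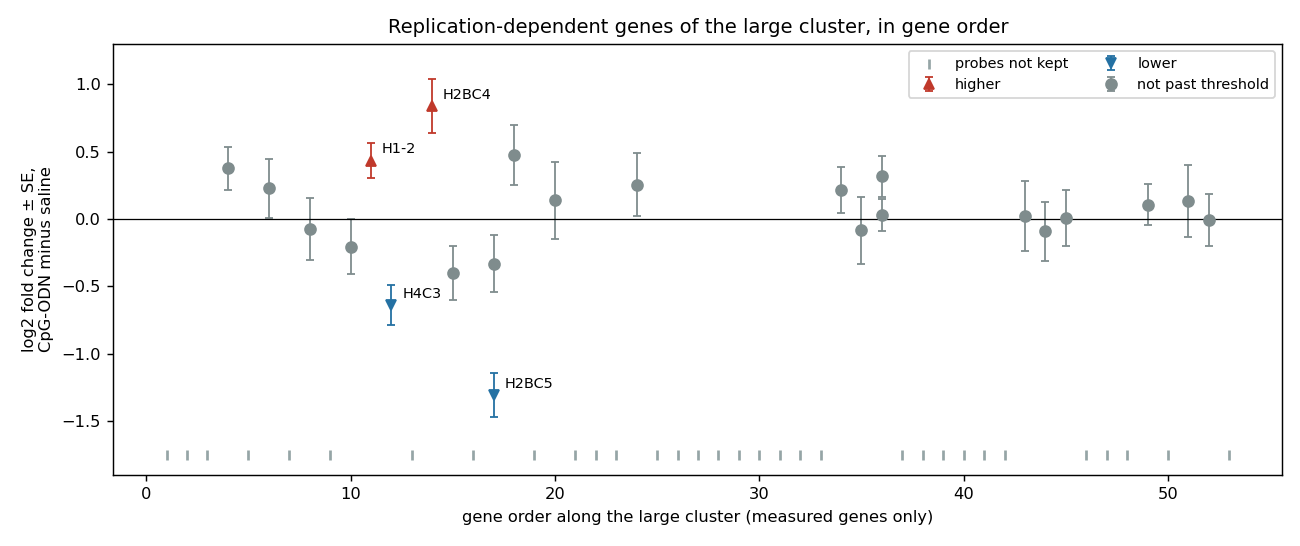
Log2 fold change ± SE (y axis, CpG-ODN minus saline) of the HIST1 probes by the order of the measured genes along the cluster (x axis). Triangles passed the threshold, and the ticks at the foot are genes with no kept probe. H1-2, H4C3, H2BC4 and H2BC5, with values of 0.43, -0.64, 0.84 and -1.31, lie close together.

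Promoters of 3 of these neighbours are shown in the same format as above, for comparison of genes whose values went opposite ways. The promoter table used here has no entry for H4C3.
H1-2 (chr6:26056421-26056720, minus strand): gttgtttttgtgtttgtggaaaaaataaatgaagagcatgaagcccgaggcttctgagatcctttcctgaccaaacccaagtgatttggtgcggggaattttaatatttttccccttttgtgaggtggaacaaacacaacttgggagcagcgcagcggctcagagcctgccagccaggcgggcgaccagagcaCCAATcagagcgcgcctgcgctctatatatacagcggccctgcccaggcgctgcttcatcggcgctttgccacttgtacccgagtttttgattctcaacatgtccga
H2BC4 (chr6:26123877-26124176, minus strand): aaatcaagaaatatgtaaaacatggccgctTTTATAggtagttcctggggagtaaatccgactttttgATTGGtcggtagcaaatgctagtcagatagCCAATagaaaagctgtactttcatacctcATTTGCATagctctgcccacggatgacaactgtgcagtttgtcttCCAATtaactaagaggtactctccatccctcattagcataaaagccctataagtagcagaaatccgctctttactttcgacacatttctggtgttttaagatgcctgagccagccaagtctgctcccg
H2BC5 (chr6:26157871-26158170, plus strand): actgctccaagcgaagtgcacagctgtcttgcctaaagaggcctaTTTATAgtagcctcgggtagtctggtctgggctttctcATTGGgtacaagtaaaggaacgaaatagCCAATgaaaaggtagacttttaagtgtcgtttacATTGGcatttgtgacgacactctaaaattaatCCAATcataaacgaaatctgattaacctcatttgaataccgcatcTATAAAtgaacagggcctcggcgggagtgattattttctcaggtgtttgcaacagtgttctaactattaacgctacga
H2BC4, which rose, held 3 CCAAT, 1 octamer and 1 TATAAA on the opposite strand. H2BC5, lower by 1 of its probes, held 4 CCAAT and 2 TATAAA, 1 of them starting 28 bases before the start site. H1-2 held 1 CCAAT. Among the 26 promoters listed for kept replication-dependent genes, 22 held CCAAT, 21 TATAAA and 13 the octamer, against 9, 4 and 1 of the 13 promoters listed for kept variant genes. These are counts of annotated starts and not of genes, since a gene such as H3-3A or H2BC5 is listed more than once.

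The 46 histone genes without a kept probe comprised 39 replication-dependent and 7 variant genes. Of the 53 probes not kept, 36 were detected on no array, among them those of the testis-specific genes H1-6, H2BC1 and H3-4, and of H1-7 and H1-8. The other 17 were above background in 5 array readings with CpG-ODN and 21 in saline. H3C10 and 1 probe of H2AB1 were each detected on 3 saline arrays and no CpG-ODN array, as was a probe listed for both H3C11 and H3C6. Detected probes were fewer on CpG-ODN arrays over the whole array as well, as given above. The split of such readings over all probes that failed the filter was not counted. Whether the split is particular to histone probes therefore cannot be told. No fold is given for the histone probes that were not kept.

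Genes that make, carry or use histones were taken from 4 lists and counted by the brightest kept probe. The lists were drawn up with earlier results of these data known. Of 23 genes of histone transcription and mRNA processing, 3 were higher and 4 lower (29.2% of all named genes passed), with a median of -0.17. NCBP1, a subunit of the nuclear cap-binding complex, fell by a log2 change of -1.48 ± 0.15 (SE, limma adjusted p = 0.000137). CSTF3, a cleavage stimulation factor subunit, stood at -1.23 ± 0.14 by its brightest probe (limma adjusted p = 0.000244) but between -0.03 and 0.16 by its other 3. LSM10, part of the U7 particle that recognises histone pre-mRNA, rose by 0.47 ± 0.12 (SE, limma adjusted p = 0.0186). CPSF3, the endonuclease that cuts histone pre-mRNA, changed by -0.41 ± 0.11 (SE, limma adjusted p = 0.0191). SLBP, which binds the histone stem-loop, stood at 0.10 ± 0.13 (limma adjusted p = 0.655), and NPAT, the cyclin E target that activates histone gene transcription, at -0.52 ± 0.28 (limma adjusted p = 0.2).

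Of 30 chaperone and nucleosome assembly genes, 1 was higher and 4 lower, with a median of -0.07, a smaller share than the 29.2% of all named genes that passed. The count of lower genes was 2 without CpG-ODN replicate 1, saline replicate 1 or saline replicate 4. The higher gene, SPTY2D1, named after its value was seen, stood at 0.54 ± 0.18 (SE, limma adjusted p = 0.0466), and its groups overlapped. The count of higher genes was 0 without any 1 of the CpG-ODN arrays, saline replicate 1 or saline replicate 3. NAP1L4, a carrier of H2A and H2B, changed by -1.29 ± 0.14 (SE, limma adjusted p = 0.000215) and its relative NAP1L1 by -0.37 ± 0.12 by its brightest probe (SE, limma adjusted p = 0.046), with other probes at -0.44 (adjusted p = 0.024) and -0.02 (adjusted p = 0.958). HELLS, a chromatin remodeller, changed by -1.05 ± 0.12 (SE, limma adjusted p = 0.000258) by its brightest probe, and its other probe stood at -0.54 (adjusted p = 0.055). CENPA, the centromeric H3 variant gene, changed by -0.49 ± 0.15 by its brightest probe (SE, limma adjusted p = 0.0345) and stood at 0.15 by the other (adjusted p = 0.392).

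Of 18 genes of the H2A.Z and H2AX exchange complexes, 2 were higher and 1 lower, with a median of 0.06, again a smaller share than the 29.2% of all named genes. TRRAP, a scaffold of the complexes that hold EP400, changed by -0.92 ± 0.14 (SE, limma adjusted p = 0.00112). DMAP1 and EPC1, other subunits of those complexes, passed narrowly at 0.39 ± 0.12 (limma adjusted p = 0.0394) and 0.60 ± 0.19 (limma adjusted p = 0.0414). The dimmer DMAP1 probe stood at 0.28 (adjusted p = 0.249). Dimmer probes of 2 genes named after their values were seen also passed. They were MORF4L1 at 1.73 (adjusted p = 0.000212, detected on 4 CpG-ODN arrays and 1 saline array) and ING3 at 0.54 (adjusted p = 0.0315). Their brightest probes stood at 0.12 and -0.004 and did not pass. The count of higher exchange genes was 0 with median scaling over all probes, without the filter, with detection on at least 1 array and with the replicate block. It was also 0 without CpG-ODN replicate 2, CpG-ODN replicate 4, saline replicate 3 or saline replicate 4, and 1 without CpG-ODN replicate 1, CpG-ODN replicate 3 or saline replicate 2. Of 22 S phase markers, 9 were lower and 0 higher, with a median of -0.34, where 16.3% of all named genes were lower and 12.9% higher. They included POLA1, a subunit of DNA polymerase alpha (-1.15 ± 0.16 by its brighter probe, limma adjusted p = 0.000734, and -0.11 by the other), MCM6 of the replicative helicase (-0.75 ± 0.12, limma adjusted p = 0.00122) and CCNE1, which encodes cyclin E1 (-0.90 ± 0.14, limma adjusted p = 0.00136). Some lower S phase genes not named here also had a dimmer kept probe that did not pass, with values of -0.04, -0.23 and -0.31. With median scaling over all probes none of the other 3 lists had a higher gene. Of the 26 replication-dependent histone genes on the same arrays, likewise counted by the brightest probe, 1 was lower and 4 higher. With median scaling over all probes 0 were lower and 0 higher, while 9 S phase genes were again lower. The part of the S phase genes in the histone values was not tested. TLR9, the receptor of CpG-ODN, was detected on none of the 8 arrays.

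**Figure D5:**
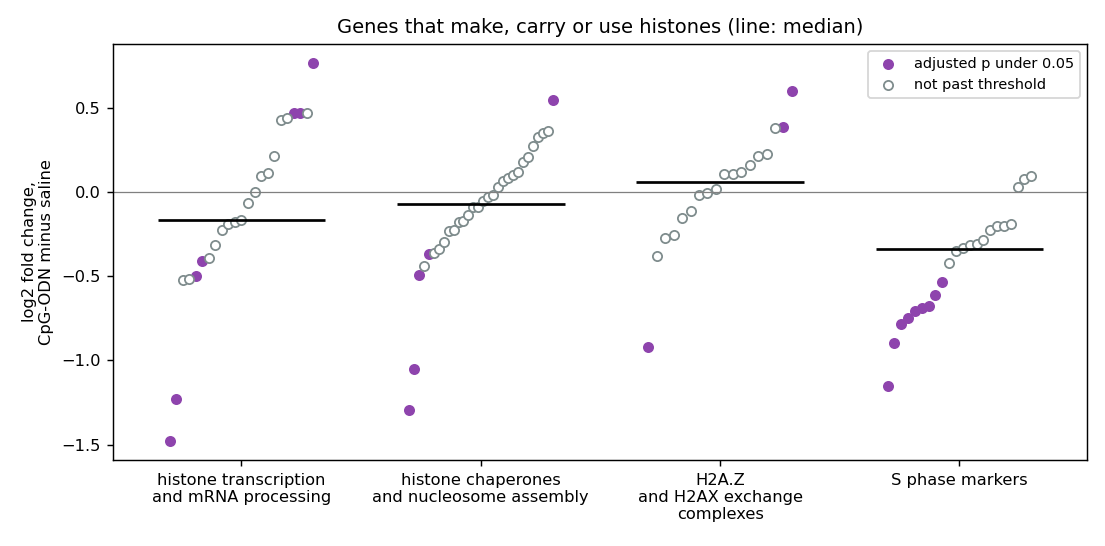
Log2 fold change (y axis, CpG-ODN minus saline) of the kept genes of 4 lists, by the brightest probe of each gene, sorted within a list, with a line at the median. Filled points passed an adjusted p of 0.05. The S phase list has 9 filled points, all below 0, and the other lists have filled points on both sides.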

How the data were processed

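Total RNA of 8 samples was hybridised to 1-colour Illumina arrays, 4 CpG-ODN and 4 saline. The authors deposited intensity values, 1 per probe and array and without normalization per the file headers, each with a deposited detection p-value. The submitters' processing notes name BeadStudio. The authors also deposited a table of normalized intensity values with 1 common distribution across arrays, by a method not given in the sources used here, and this table served as an alternative. Signals were corrected and quantile normalized with neqc (offset 16) in limma 3.58.1 under R 4.3.3. The detection filter retained 18184 of 48797 probes. Of these, 14584 had 1 gene, 3 several and 3597 are unnamed here. Names came from the platform annotation and the RefSeq table of GRCh38.p14, which was also used for gene order. Promoters, also from RefSeq, matched 32 of the 36 genes.

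Probes were fitted with lmFit and eBayes, two-sided, and p-values were adjusted (Benjamini-Hochberg) over the whole kept set, the call being made at 0.05. Each adjusted p in the text is from that limma fit. Any kept histone probe could be named, and from each list up to 4 genes with the smallest p among those past the threshold, beside SLBP, NPAT, CENPA and TLR9. Marker genes are named to describe the samples. Members and lists were chosen with earlier results of these data known, and the partner ratios and the median scaling over kept probes were added after the values were seen. The number of arrays limits the precision.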

Additional observations from a re-analysis of the deposited data

Results flagged for a closer look

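In 96 groups of 4 arrays examined, 7 had an array whose gap to its nearest neighbour exceeded Dixon's 95% critical value as a share of the range of the group, and chance gives about 1 in 20. Among probes with CpG-ODN, H1-2 on replicate 4 was low, at 9.83 against a nearest value of 9.93 (gap over range 0.832). H3C1 on CpG-ODN replicate 3 was high, at 7.25 against 6.67 (0.844), and the H3P6 probe ILMN_2402936 on CpG-ODN replicate 2 was low, at 9.61 against 10.18 (0.931). Saline replicate 3 stood apart at 3 probes. It was high at H3C1, at 6.56 against 6.36 (0.954), and low at H2AC6, at 6.86 against 7.13 (0.852), and at H4C14, at 5.23 against 5.71 (0.881). The mean raw signal of saline replicate 1, 1079, lay above the nearest saline value of 906 (0.852).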

How the results depend on the processing

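In up to 20 alternatives no histone probe past the threshold changed sign, and the calls of H3-3B, H2AZ2 and the H2BC5 probe ILMN_1651496 held in all 20. Over the 8 settings that leave out 1 array, 3866 to 4266 probes passed in all (1830 to 2055 higher, 2032 to 2268 lower, against 4843). Replication-dependent probes then gave 2 to 5 higher and 2 lower with a median of 0.08 to 0.20, and their genes 1 to 4 higher and 1 lower. Variant probes gave 2 to 3 higher and 0 to 1 lower with a median of -0.04 to 0.01, and their genes 2 higher and 0 to 1 lower. The processing list gave 1 to 3 higher and 3 to 5 lower, the chaperones 0 to 1 and 2 to 4, the exchange complexes 0 to 2 and 1, and the S phase list 0 and 9 to 11.

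Without background correction, and in the second deposited table, the replication-dependent median was 0.042, 2 variant probes and 2 variant genes were lower, and 5 processing and 3 chaperone genes were higher. With median scaling over all probes (median of all probes -0.07), 1055 probes were higher in all. Replication-dependent probes were then 0 higher and 1 lower with a median of 0.015 (their genes 0 and 0), the variant median was 0.072, and 0 processing, 0 chaperone and 0 exchange genes were higher. With median scaling over kept probes, chosen after seeing the data (median 0.10), 1 replication-dependent probe and 0 genes were lower, the medians were 0.21 for replication-dependent and 0.19 for variant probes, 5 processing and 3 chaperone genes were higher, and 2 chaperone genes were lower.

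With no filter, or detection on at least 1 array, 3 replication-dependent probes and 2 genes were higher, 0 variant probes or genes were lower, chaperones were 0 higher and 2 lower, and 0 exchange genes were higher. The replication-dependent median was 0.0048 with no filter and 0.0136 with detection on at least 1 array. Detection on all 8 arrays, or a detection p-value under 0.01, gave 5 processing and 3 chaperone genes higher. An offset of 50 gave 5 and 2, and a mean-variance trend gave 5 and 2, with 2 variant probes and 2 variant genes lower. Array weights left 1 exchange gene higher. Averaging the probes of each gene gave 2 replication-dependent genes lower, and 5 processing, 3 chaperone and 4 exchange genes higher. More probes enter the adjustment without a filter. The cause of the other moves was not tested.

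Sign changes were found 65 times among 20 of the histone and pseudogene probes, 42 of them with an array left out, and in 0 of these did the probe pass in either setting. Median scaling over all probes put H3-3A ILMN_1656082 at 0.072, MACROH2A1 ILMN_1746171 at -0.018, H2BC12 ILMN_1796179 at -0.034, H3-3A ILMN_2106331 at 0.12, MACROH2A1 ILMN_2373495 at 0.091 and H3P6 ILMN_2402930 at 0.012. Median scaling over kept probes put H3-3A ILMN_1656082 at 0.19, MACROH2A2 ILMN_1705570 at 0.078, H3-5 ILMN_1769705 at 0.051, H1-10 ILMN_1773964 at 0.023, H3-3A ILMN_2106331 at 0.24, MACROH2A1 ILMN_2373495 at 0.21, H3P6 ILMN_2402930 at 0.13 and H3P6 ILMN_2402936 at 0.039. With 1 array left out, H3-3A ILMN_1656082 ran from -0.064 to 0.0089, MACROH2A2 ILMN_1705570 ran from -0.26 to 0.17, MACROH2A1 ILMN_1746171 ran from -0.038 to 0.14 and H1-10 ILMN_1773964 ran from -0.097 to 0.0077. Likewise H2BC12 ILMN_1796179 ran from -0.0086 to 0.075, H3-3A ILMN_2106331 ran from -0.070 to 0.064, MACROH2A1 ILMN_2373495 ran from -0.093 to 0.0030 and H3P6 ILMN_2402936 ran from -0.081 to 0.12.

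CpG-ODN and saline arrays share replicate numbers, and the labels do not say whether a number marks a pair or a batch. The deviations of same-numbered arrays correlated at 0.02, -0.05, -0.27 and 0.09. With so few arrays, these values cannot decide whether the arrays are paired. With the replicate block 3954 probes passed, 3 replication-dependent probes and 2 genes were higher, 0 variant probes or genes were lower, chaperones were 0 higher and 2 lower, and 0 exchange genes were higher. Not every array correlated best with its own number. Dim probes near background limit the smaller changes, since 13 of the 44 kept probes were not detected on every array.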
